A study of Rattus norvegicus with 2 samples.

Results

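The genes that make, store, take back and break down noradrenaline were examined in the sympathetic neurons of the rat stellate ganglion. The set holds 9 genes chosen by their symbols, which are Th, Ddc, Dbh, Gch1, Slc18a1, Slc18a2, Slc6a2, Maoa and Maob. All 9 were found among the 25399 genes listed for each strain. Stellate ganglia were dissociated with collagenase and trypsin and their cells were sequenced singly (scRNAseq) in 1 library from Wistar rats, which are outbred and normotensive, and in 1 library from spontaneously hypertensive rats (SHRs), an inbred strain that was still prehypertensive. Animals of both strains were 5 to 6 weeks old and male, and how many were pooled for a library is not given in the sources used here. The deposited value of a gene is its mean over the cells of the sympathetic neuron cluster of a library, and each level below is that mean, in counts per 10000 counts of a cell. Dbh, Maoa, Slc6a2 and Th are among the markers that the paper used for these neurons, so their levels are not independent of how the cells were identified. The paper describes distinct sympathetic populations, of which 1 also expressed neuropeptide Y, and the deposited values do not separate them. A strain is represented by a single library, so no difference between the strains carries an error or a test.

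Noradrenaline is the main transmitter of the postganglionic sympathetic neurons that reach the heart. Tyrosine is hydroxylated to DOPA by tyrosine hydroxylase (Th), the rate-limiting step, which needs the cofactor tetrahydrobiopterin. GTP cyclohydrolase 1 (Gch1) begins the synthesis of that cofactor. Aromatic amino acid decarboxylase (Ddc) then forms dopamine, the vesicular monoamine transporters (Slc18a2, VMAT2; Slc18a1, VMAT1) load it into vesicles, and dopamine β-hydroxylase (Dbh) converts it to noradrenaline inside them. After release the noradrenaline transporter (Slc6a2) returns the transmitter to the neuron, where monoamine oxidases (Maoa, Maob) on the mitochondrial outer membrane deaminate what is not stored again.

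To show the sequence before the genes whose levels are compared, the promoter stretches of the 4 synthesis genes were taken from RefSeq (build GRCr8, the Brown Norway reference rat, which is neither of the strains studied). RefSeq windows were matched by symbol for 7 of the 9 genes, all but Slc18a1 and Slc6a2. Only bases outside each gene's annotated span are shown for these 4 genes, written 5′ to 3′ on the gene's strand, with the Th stretch at chr1:207508277-207508468 (minus strand), Ddc at chr14:90682831-90683033 (minus), Dbh at chr3:30886078-30886312 (plus) and Gch1 at chr15:22917413-22917662 (minus). Capitals mark matches, on either strand, to the cyclic AMP response element TGACGTCA, its shorter core TGACG, the TATA motif TATAAA and the E-box CAGCTG.
Th: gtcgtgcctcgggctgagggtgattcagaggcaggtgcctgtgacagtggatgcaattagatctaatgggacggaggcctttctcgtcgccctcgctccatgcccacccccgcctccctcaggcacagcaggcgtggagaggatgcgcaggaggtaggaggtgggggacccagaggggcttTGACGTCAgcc
Ddc: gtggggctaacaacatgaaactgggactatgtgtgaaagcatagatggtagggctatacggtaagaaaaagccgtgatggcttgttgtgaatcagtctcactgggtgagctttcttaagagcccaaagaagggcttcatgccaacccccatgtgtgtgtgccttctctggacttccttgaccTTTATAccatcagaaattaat
Dbh: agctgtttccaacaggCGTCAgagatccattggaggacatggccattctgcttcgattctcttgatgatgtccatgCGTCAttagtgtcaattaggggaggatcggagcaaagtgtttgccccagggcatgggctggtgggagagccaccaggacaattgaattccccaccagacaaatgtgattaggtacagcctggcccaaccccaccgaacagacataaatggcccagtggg
Gch1: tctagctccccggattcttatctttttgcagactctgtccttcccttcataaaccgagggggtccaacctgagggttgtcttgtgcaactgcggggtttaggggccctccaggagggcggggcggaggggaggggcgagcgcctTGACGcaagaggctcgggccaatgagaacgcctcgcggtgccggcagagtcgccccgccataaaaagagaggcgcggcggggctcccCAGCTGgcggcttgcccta

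In the 250 bases before the annotated start, the full element TGACGTCA was present in Th and in Slc18a2, 2 of the 7 genes with a window, and in 1.59% of the 33469 RefSeq windows. The Slc18a2 match lies inside that gene's annotated span. A stretch of 30 bases that holds it, at chr1:268399958-268399987 on the plus strand, is given to show the site.
Slc18a2: agtgctatccgTGACGTCAgagccggactg
The core TGACG, which the full element contains on both strands, was present in 4 of the 7 genes (Th, Dbh, Gch1 and Slc18a2) and in 18.2% of all windows. Its matches in Dbh end 230 and 170 bases before the start, and the match in Gch1 ends 102 bases before it. The E-box CAGCTG was found in Gch1 and Maob, against 12.0% of windows, and TATAAA only in the first of the 3 Ddc windows among the 7 genes, against 12.9%. The homeodomain motif TAATTA was in none of the 7, against 4.86% of windows. These matches describe the reference letters and say nothing of binding in either strain.

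Of the 9 genes, Slc6a2 and Th had nearly the same mean in both strains, Ddc, Dbh, Maoa and Slc18a1 were lower in SHR by at least 1.5-fold, and Gch1 was higher in SHR by 3.04-fold. Slc18a2 was lower by 1.47-fold, just short of that size, and Maob was 1.12 times as high in SHR as in Wistar. All 9 genes passed the minimum of 0.1 per 10000 on the average of both libraries. Slc18a1 did so only through its Wistar level (0.172, against 0.0888 in SHR), so its count among the lower genes depends on the library in which it was high. Over the 7621 genes past this minimum, 26.5% were lower in SHR by at least 1.5-fold and 5.22% were higher. The 4 lower genes of 9 and the 1 higher gene are to be read against those shares. The means of all genes are scaled to the same total in each library, and the median log2 ratio (SHR over Wistar) of the genes past the minimum was -0.21.

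**Figure D1:**
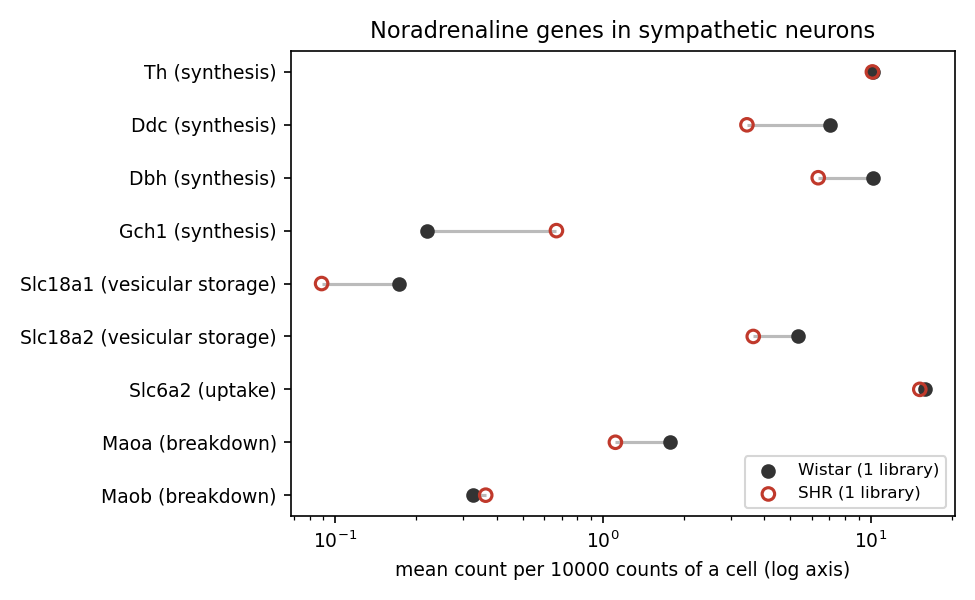
Mean count per 10000 (log axis) of each noradrenaline gene, with 1 filled point for the Wistar library and 1 open point for the SHR library, and no error bars because each strain has 1 library. The points of Th and Slc6a2 nearly coincide, those of Ddc, Dbh, Slc18a1, Slc18a2 and Maoa sit to the left in SHR, and that of Gch1 sits to the right, at 0.669 against 0.220.

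Among the synthesis genes, Th was level between the strains while Ddc and Dbh, the next enzymes of the chain, were lower in SHR. The level of Th was 10.2 in Wistar, against 10.1 in SHR, a log2 ratio of -0.01 that turned to 0.031 with the mitochondrial and ribosomal protein transcripts taken out of the totals. That of Ddc was 7.05 in Wistar, against 3.44 in SHR. The SHR level of Ddc was thus 0.488 times the Wistar level, a log2 ratio of -1.04, and its rank among all genes went from 141 to 429. Dbh stood at 10.2 in Wistar, next to Th in rank (88 against 87). In SHR the mean of Dbh was 6.36 and its rank 213, with Th at rank 103, so that the log2 ratio of Dbh was -0.68. The summed level of the 4 synthesis genes was 27.7 in Wistar, against 20.6 in SHR.

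Gch1 went the other way. Its level was 0.220 in Wistar, against 0.669 in SHR, a log2 ratio of 1.60 and a rank of 5887 against 2317. Among the 7621 genes past the minimum, this ratio was the 9th from the top. Gch1 was a scarce transcript beside the gene whose enzyme uses its product, and the mean of Th was 46.3 times that of Gch1 in the Wistar library and 15.1 times in the SHR library.

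The 2 vesicular transporter genes were at very different levels. Slc18a2, the neuronal form, stood at 5.36 in Wistar, against 3.63 in SHR, a log2 ratio of -0.56. Slc18a1, known best from chromaffin cells, stood at 0.172 in Wistar, against 0.0888 in SHR, a log2 ratio of -0.96. Slc18a2 was 31.1 times as abundant as Slc18a1 in Wistar and 40.9 times in SHR, so nearly all vesicular monoamine transporter transcript in both strains was Slc18a2. The adrenaline enzyme gene Pnmt, a defining marker of chromaffin cells, had a level of 0.00175 in Wistar and was listed at 0 in SHR. Penk, a peptide gene of small intensely fluorescent (SIF) cells and some neurons, was lower in SHR, where it stood at 0.0467, against 0.546 in Wistar. Whether such cells had a part in the Slc18a1 level was not tested.

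Slc6a2 was the most abundant of the 9 transcripts in both libraries, at 15.9 in Wistar (rank 43), against 15.2 in SHR (rank 62). Its log2 ratio was -0.06, and it became 0.15 when all ratios were centred on their median. Slc6a2 alone made up 31.0% of the summed level of the 9 genes in Wistar and 37.1% in SHR. The 9 genes together summed to 51.2 in Wistar and to 41.0 in SHR, which is 0.802 times the Wistar sum.

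Of the 2 monoamine oxidase genes, Maoa, whose enzyme prefers noradrenaline and serotonin, was the more abundant. It stood at 1.78 in Wistar, against 1.11 in SHR, a log2 ratio of -0.68. Maob stood at 0.326 in Wistar, against 0.364 in SHR, a log2 ratio of 0.16 that became -0.13 when the libraries were scaled to summed neuron markers. The mean of Maoa was 5.44 times that of Maob in Wistar and 3.05 times in SHR. The 2 genes are neighbours on the X chromosome of the reference, with 0 annotated genes between them.

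From the highest level to the lowest, the order in Wistar was Slc6a2, Th, Dbh, Ddc, Slc18a2, Maoa, Maob, Gch1 and Slc18a1. In SHR, Ddc stood below Slc18a2 and Maob below Gch1, and the other genes kept their places. In these libraries the 3′ end of a transcript is counted once whatever its length, so levels were set side by side without division by length. The means of Th and Dbh in Wistar (both 10.2) and of Ddc and Slc18a2 in SHR (3.44 and 3.63) were the closest neighbours. With 1 library per strain the order has no error, in these pairs or elsewhere.

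A ratio of the means of 2 genes within a library does not depend on a factor shared by the whole library. The scaling of each cell to its own total does not cancel in this way. The mean of Dbh was 0.999 times that of Th in Wistar and 0.628 times in SHR. Ddc stood at 0.692 relative to Th in Wistar and at 0.340 in SHR, and Slc18a2 at 0.525 and 0.359. The ratio of Slc6a2 to Th was 1.556 in Wistar and 1.504 in SHR. Relative to the mean of Slc6a2, that of Slc18a2 was also lower in SHR, at 0.239 against 0.338 in Wistar. Maoa stood at 0.174 relative to Th in Wistar and at 0.110 in SHR, and Gch1 at 0.0216 and 0.0661.

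**Figure D2:**
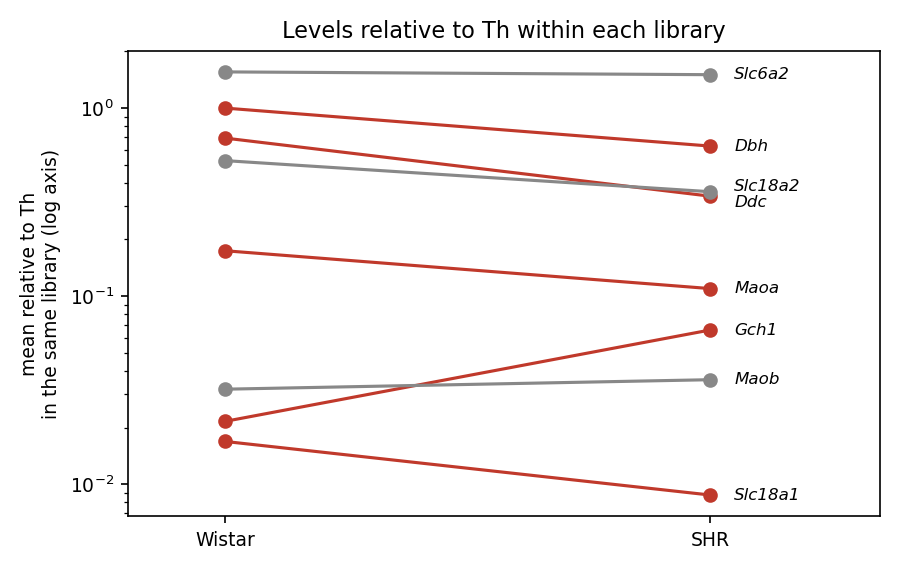
Mean of each gene divided by the mean of Th in the same library (log axis), Wistar on the left and SHR on the right, 1 library each. Red lines are genes whose value relative to Th differed between the strains by at least 1.5-fold and grey lines the others. Dbh goes from 0.999 to 0.628 and Gch1 from 0.0216 to 0.0661, while the line of Slc6a2 is nearly flat.

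The share of genes past a size depended on abundance, and so did the background of these differences. Among the 1676 genes with an average of at least 1 per 10000, 11.6% were lower in SHR by at least 1.5-fold and 10.3% were higher. Of the 6 noradrenaline genes at that level, Ddc, Dbh and Maoa were among the lower ones and none was among the higher ones. Among the 273 genes averaging at least 5 per 10000, a limit added after the data were seen, 4.4% were lower by that size and 17.6% higher. Those 4.4% are 12 genes, which include Ddc and Dbh, while Th and Slc6a2 also passed this limit and were not among them. Ddc, with an average of 5.25, passed it only through its Wistar level (7.05, against 3.44 in SHR). Its place among the 12 thus depends on the library in which it was high, while Dbh was above 5 in both. Ddc stood 6th and Dbh 8th in the size of the log2 ratio among the 12.

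**Figure D3:**
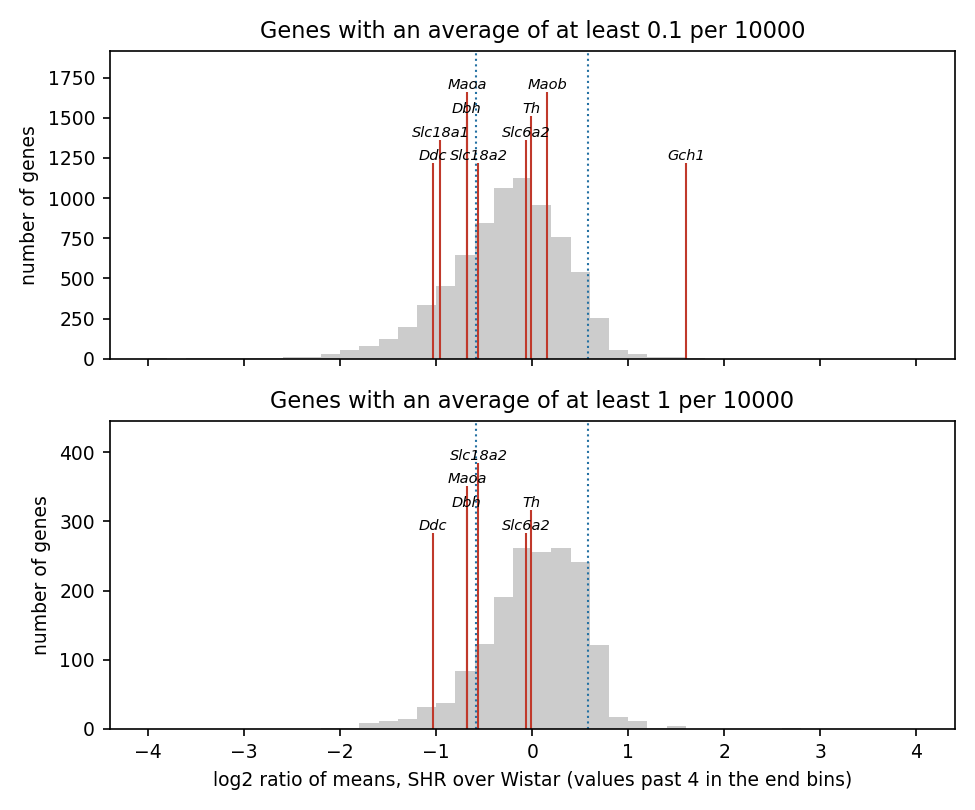
Number of genes by log2 ratio of means, SHR over Wistar, in steps of 0.2, for genes averaging at least 0.1 (top) and at least 1 per 10000 (bottom). Red lines mark the noradrenaline genes and dotted lines the 1.5-fold size. Ddc at -1.04, and Dbh and Maoa at -0.68, lie left of the dotted line in both panels, and Gch1 at 1.60 lies far right of the bulk.

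The difference between the strains also moved with gene span across the transcriptome. Of the genes past the minimum, 95.7% had a span in GRCr8, and they were put in 10 equal groups by it. Dbh falls in the 4th group from the shortest, in which 20.0% of genes were lower in SHR by at least 1.5-fold. Ddc and Maob both fall in the 9th group, where 40.7% were lower, and Maoa in the 8th, with 35.4%. Gch1, Slc18a1, Slc18a2 and Slc6a2 all fall in the 7th group, in which 29.4% of genes were lower and 2.61% higher. Th falls in the 2nd, with 15.9% lower. In the shortest group 8.37% of genes were lower and 17.1% higher, and in the longest group 47.1% were lower and 1.51% higher. The part of span in any one difference was not tested.

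The genes of the tetrahydrobiopterin pathway, which supplies the cofactor of Th, were compared as a list of 8 that includes Gch1. All 8 passed the minimum and none was lower in SHR. At least 1.5-fold higher were 4 of them, Gch1, Pcbd1, Pcbd2 and Gchfr, against 5.22% of all genes past the minimum. Among genes averaging at least 1 per 10000, as Pcbd1 does, 10.3% were higher, and in the shortest span group 17.1%. The spans of the list genes other than Gch1 were not compared. The recycling gene Pcbd1 was at 2.31 in Wistar, against 3.62 in SHR, and its relative Pcbd2 0.352 and 0.763. Gchfr, whose protein restrains the Gch1 enzyme when the cofactor is plentiful, was at 0.116 and 0.196. The other recycling enzyme gene Qdpr was level, at 2.29 in both libraries. Pts and Spr, which complete the synthesis of the cofactor, were at 0.126 and 0.217 in Wistar and at 0.162 and 0.292 in SHR, short of 1.5-fold. Scaled to the summed neuron markers, Pcbd1 and Gchfr also fell short (log2 ratios 0.36 and 0.47), and with the median ratio at 0 Spr passed (0.64). The median log2 ratio of the list was 0.59, against -0.21 over all genes past the minimum.

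Dbh needs ascorbate and copper, and a list of 7 genes for their supply gave no shared direction. Cyb561, which regenerates ascorbate inside the vesicle, was close to Slc6a2 in abundance, at 14.9 in Wistar, against 18.7 in SHR. The copper chaperone gene Atox1 was higher in SHR by at least 1.5-fold, at 3.04 against 1.91. The ascorbate transporter gene Slc23a2 (0.664 in Wistar and 0.405 in SHR) and the copper transporter gene Slc31a2 (0.316 and 0.205) were lower by that size. Atp7a, which pumps copper into the secretory pathway, was at 1.56 in Wistar and 1.19 in SHR. In all, 1 gene of the 6 past the minimum was higher and 2 were lower, beside 5.22% and 26.5% of all genes. Neither lower gene was past 1.5-fold with the median ratio at 0 (log2 ratio -0.50 for Slc23a2 and -0.41 for Slc31a2), and Slc31a2 also fell short without mitochondrial and ribosomal protein genes and without the 50 most abundant genes (-0.58 in both). Scaled to the summed neuron markers, Atox1 fell short (0.39) and Atp7a was past 1.5-fold lower (-0.68).

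Past the monoamine oxidases, the catechol and aldehyde breakdown list had 8 genes above the minimum and none of them differed by 1.5-fold. Sult4a1 passed that size with the median ratio at 0 (log2 ratio 0.75) and Aldh1a1 when scaled to the summed neuron markers (-0.67). The most abundant of them were Akr1a1 (5.15 and 6.23), an aldehyde reductase, Sult4a1 (2.98 and 4.33) and Akr1b1 (2.19 and 1.98). Among 10 genes of other monoamine pathways, 2 passed the minimum. Slc6a4, the serotonin transporter gene, was lower in SHR at 0.193 against 0.363, and Slc29a4, a low-affinity plasma membrane monoamine transporter, was at 1.93 in SHR and 1.37 in Wistar, which passed 1.5-fold only with the median ratio at 0 (0.71). Tph1, a serotonin synthesis gene below the minimum, was at 0.0135 in Wistar and 0.0411 in SHR. The dopamine transporter gene Slc6a3 was listed at 0 in Wistar and had a level of 0.000734 in SHR.

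**Figure D4:**
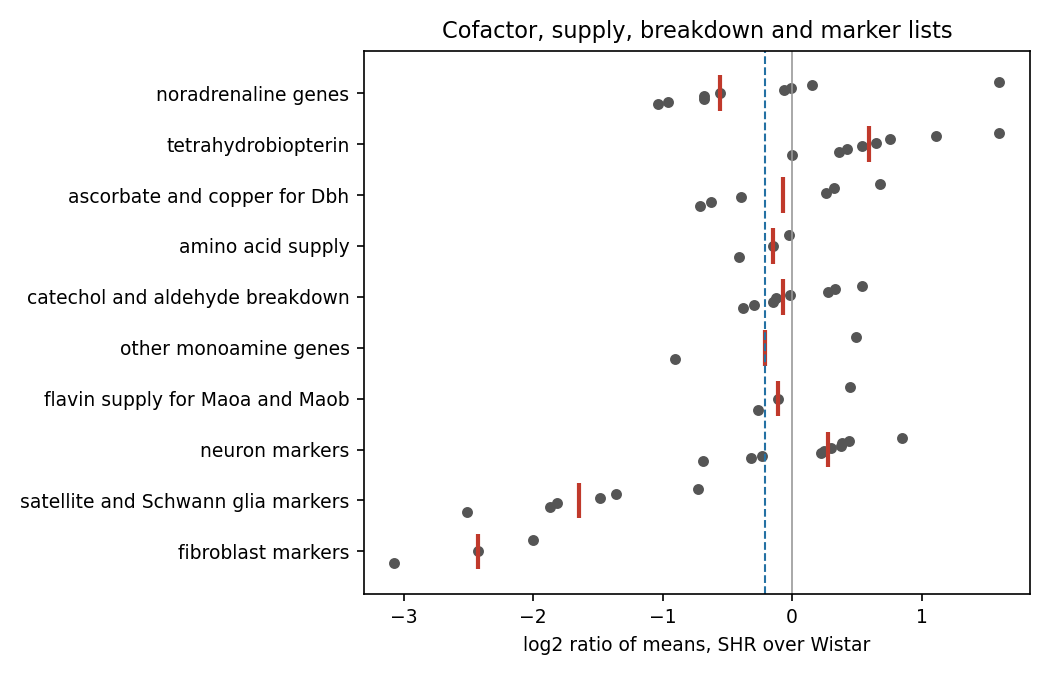
Log2 ratio of means, SHR over Wistar, of each gene past the minimum (points) and their median (red bars) by list, with the dashed line at the median of all genes past the minimum (-0.21). The tetrahydrobiopterin genes lie at or right of 0, while the glial and fibroblast markers lie left of it. Gch1 is in both of the top 2 lists.

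The values were those of a neuronal cluster in both libraries, as its markers show. The 10 neuron markers summed to 201.3 in Wistar and to 245.5 in SHR, with Prph, Stmn2 and Tubb3 the highest. They did not all move together, as 7 were higher in SHR at any size and 3 were lower. By at least 1.5-fold, Elavl4 was lower in SHR (3.41 in Wistar and 2.11 in SHR) and Hand2 was higher (0.250 and 0.452). The cholinergic gene Chat was at 0 in both libraries, while the choline transporter gene Slc5a7 stood at 0.432 in Wistar and 0.218 in SHR. The marker lists of other cell types summed to lower levels, and each sum was lower in SHR, though not every single marker below the minimum was. The 8 satellite and Schwann glia markers summed to 9.34 in Wistar and 3.45 in SHR, with Apoe the highest (6.24 and 2.23), all 6 of those past the minimum were lower by at least 1.5-fold, and none of the 8 was at 0. Of the 6 fibroblast markers, which summed to 1.84 and 0.353, 3 passed the minimum and all 3 were lower, with Col3a1 the highest (0.814 and 0.152). Some of these glial and fibroblast markers passed the minimum only through their Wistar level. Leaving the markers of other cell types out of the totals dropped each noradrenaline gene's log2 ratio by 0.0011, a measure of the totals alone. The part of other cells' RNA in the levels of single genes was not tested.

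Each scaling moved every log2 ratio by the same amount, so the genes near 1.5-fold or near 0 were those that changed side. Scaled to the summed neuron markers, a setting added after the data were seen, the log2 ratio was -1.32 for Ddc, -0.97 for Dbh, -0.85 for Slc18a2 and -0.30 for Th. With all ratios centred on their median, which adds 0.21 to each log2 ratio, Ddc stood at -0.82, Slc18a1 at -0.74, Dbh and Maoa at -0.47, Th at 0.20 and Gch1 at 1.81. Ddc, Slc18a1 and Gch1 stayed past 1.5-fold under all 6 scalings, and Dbh and Maoa under 5 of them.

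**Figure D5:**
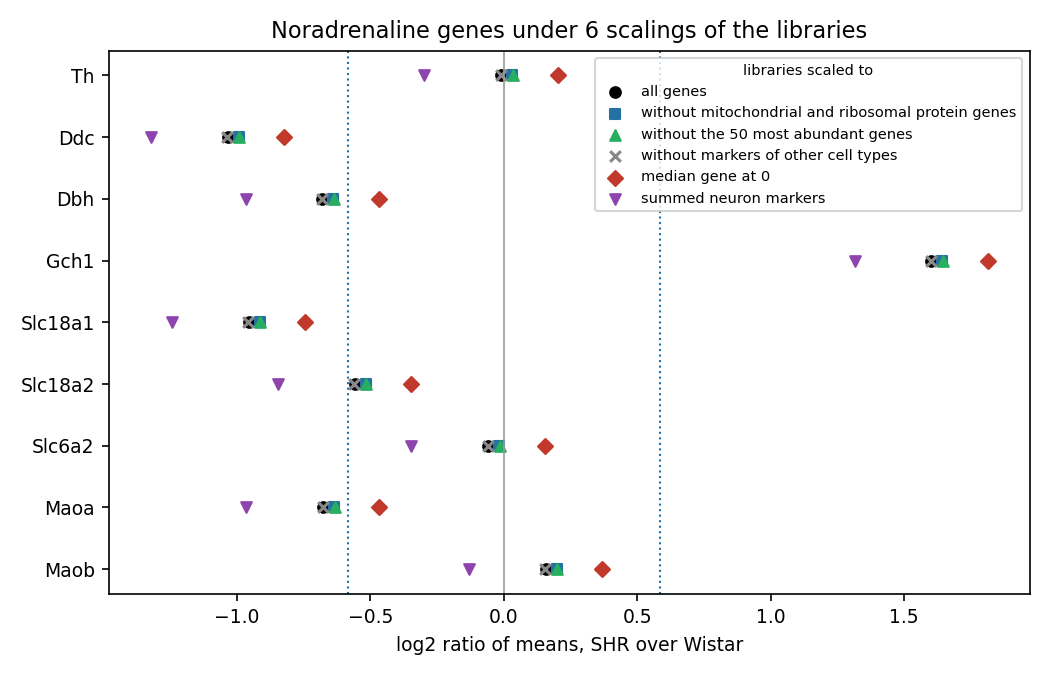
Log2 ratio of each noradrenaline gene, SHR over Wistar, under 6 scalings of the 2 libraries, with dotted lines at the 1.5-fold size. Ddc and Slc18a1 lie left of the dotted line and Gch1 right of it under each, while Th, Slc6a2 and Maob lie near 0 and change side with the scaling.

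The depth behind these means can be gauged from the lowest values. In each library many genes share exactly the same low value, as they would if 1 count in the same cell were behind it. The median of such values shared by at least 3 genes was 0.000299 per 10000 in Wistar and 0.000844 in SHR. By this estimate the scarcest of the 9 genes, Slc18a1, rested on about 575 counts in Wistar and 105 in SHR, and Gch1 on about 736 and 792. The lowest shared value in place of the median gives upper limits of 1232 and 227 for Slc18a1 and of 1576 and 1711 for Gch1. The estimates for the other genes ran from 431 for Maob in SHR to 52990 for Slc6a2 in Wistar. These estimates concern counting alone and hold nothing of the spread between animals, preparations or cells. The means pool the neurons of a library, so fewer neurons with a transcript and less transcript per neuron cannot be told apart.

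The genes whose pair of means was nearest to that of a noradrenaline gene were found by the distance of the log2 means over the 2 libraries. Nearest to Th were Pebp1 (9.48 in Wistar and 10.2 in SHR) and Pgk1 (9.72 and 11.1). Map2, a microtubule gene, nearly coincided with Dbh, at 10.3 and 6.43. Rtn3 and Ndfip1 lay nearest to Slc6a2, and Clasp1 (1.82 and 1.11) and Stx1a (1.76 and 1.14) nearest to Maoa. Likeness over 2 values describes the levels only.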

How the data were processed

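Stellate ganglion cells were captured with 10x Genomics Single cell 3′ v3 chemistry and sequenced on a HiSeq 4000. The submitters' processing notes name Cell Ranger 3.0.2, Seurat 3 and the build Rnor_6.0. The authors selected the sympathetic neurons and deposited, for each library, the natural log of each gene's mean count per 10000 after adding 1. Filters on cells and the treatment of doublets are not given in the sources used here.

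Values were converted with the exponential minus 1 and compared as ratios of means, with Python 3.11.15, NumPy 2.4.6 and pandas 2.3.3. Of 25399 lines, 4 were dropped because their names occur more than once. A gene was counted as lower or higher from a ratio of 1.5, at an average of at least 0.1 per 10000. The steps were tested on simulated data. No test between strains can be made with 1 library each. The authors' table of their own strain comparison, with fold changes, p-values and 2 detection columns that name no strain, was not used.

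The members and lists were chosen with earlier results of these data known. Named were all 9 members, each list gene past the size or among the 3 highest of its list and, for Th, Dbh, Slc6a2 and Maoa, the 2 nearest genes by level. Some genes under this rule are left out of the text and of the list counts. Of the marker lists, counts, sums and leading genes are given. Penk, Pnmt, Pts, Spr, Slc6a3, Phox2a, Hand2, Elavl4, Slc18a3 and Chat were named beside them after their values were seen. Depth was estimated from low values shared exactly by 3 or more genes. Motifs were searched in the 250 bases before RefSeq starts.

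Alternatives were pseudocounts of 0.1 and 1, other scalings, minimums of 0, 1 and 5, and limits of 1.25-fold and 2-fold.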

Additional observations from a re-analysis of the deposited data

How the results depend on the processing

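No paired analysis was possible because only 1 library was made per strain. With the median log2 ratio at 0, Th was at 0.20, Slc6a2 at 0.15, Dbh at -0.47 and Maoa at -0.47, the genes lower by 1.5-fold numbered 2 of the 9 and 1320 of all, those higher 1005 of all, and the summed level of the 9 stood at 0.929 of that in Wistar. This setting also turned the sign of Slc7a5 (0.063), Slc7a8 (0.19), Aldh2 (0.20), Aldh3a2 (0.084), Akr1b1 (0.065) and Flad1 (0.11). Without mitochondrial and ribosomal protein genes the log2 ratio was 0.031 for Th, 0.016 for Slc7a8 and 0.025 for Aldh2, and without the 50 most abundant genes 0.034, 0.019 and 0.028. Without markers of other cell types only Qdpr, at -0.00064, changed sign among the genes compared.

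A pseudocount shrinks low levels by construction. At 0.1 the log2 difference of Slc18a1 was -0.53, and 1294 genes were lower and 233 higher. At 1 it was 0.45 for Gch1, -0.11 for Slc18a1 and -0.40 for Maoa, with 2 of the 9 genes lower, 0 higher, and 96 and 43 of all genes. With no minimum 5108 genes were lower and 1650 higher. At a minimum of 1 these counts were 195 and 172, with 0 of the 9 higher, and at 5 they were 12 and 48, with 2 of the 9 lower and 0 higher. At the smaller fold limit they were 3211 and 1185, and at 2-fold 861 and 58, with Ddc the 1 lower gene of the 9.

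Scaled to the summed neuron markers, Slc18a2 was at -0.85, Maob at -0.13, Qdpr at -0.29, Slc31a1 at -0.028 and Akr1a1 at -0.012, the summed level of the 9 was 0.657 of that in Wistar, and 3360 genes were lower and 81 higher. This scaling and the minimum of 5 were chosen after the data were seen. The signs of Ddc, Dbh, Gch1, Slc18a1, Slc18a2 and Maoa could not turn in these settings. A pseudocount added to both means leaves a sign as it is. The scalings shifted all log2 ratios by at most 0.21 upward or 0.29 downward, less than the size of the ratio of each of these genes. The depth is an estimate from the low values and limits Slc18a1 in SHR most.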

Other observations

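A pair of short lists touch the noradrenaline pathway at its edges. In the amino acid supply list, 3 of 5 genes passed the minimum and none differed by 1.5-fold. The heavy chain gene Slc3a2 was at 2.01 in Wistar, against 1.51 in SHR (mean counts per 10000), and its partner transporter Slc7a5, which carries tyrosine across the membrane, at 0.453 and 0.409. Scaled to the summed neuron markers, Slc3a2 was past 1.5-fold lower (log2 ratio -0.70). Slc7a8 was level, at 0.797 and 0.783. Of the 4 genes that supply the flavin of the monoamine oxidases, 3 passed and none differed by 1.5-fold. The most abundant was Rfk, riboflavin kinase, at 0.764 in Wistar, against 1.042 in SHR, followed by Flad1 at 0.253 and 0.235 and Slc52a2 at 0.148 and 0.123. Rfk was past 1.5-fold higher with the median ratio at 0 (log2 ratio 0.66).

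Slc5a7, the choline transporter gene, stood at 0.432 in Wistar, against 0.218 in SHR, while Chat was at 0 in both libraries and Slc18a3 at 0.000393 and 0.000523. The 5 chromaffin and SIF cell markers summed to 4.78 in Wistar and 3.44 in SHR, and of the 4 past the minimum Slc18a1 and Penk were lower by at least 1.5-fold. Both of these passed the minimum only through their Wistar level. Chgb was the most abundant of them, at 3.78 in Wistar and 3.10 in SHR, followed by Cartpt at 0.281 and 0.205. Phox2a and Hand2, sympathetic lineage factors, were at 6.03 and 0.250 in Wistar and at 7.82 and 0.452 in SHR. The markers of endothelium, smooth muscle, immune cells and erythrocytes summed to at most 0.309 per list in either library, and their highest genes in Wistar were Vwf (0.123), Myh11 (0.0880), C1qa (0.138) and Hbb (0.0474).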
